A study of Rattus norvegicus with 32 samples.

Results

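The Cyp2c family members described here are 6 cytochrome P450 genes of rat liver, Cyp2c7, Cyp2c11, Cyp2c12, Cyp2c13, Cyp2c22 and Cyp2c23. They were taken by symbol from the table of raw gene counts, in which they are 6 of 17327 genes, and all 6 were among the 11002 genes with enough reads to be tested. The table held 8 genes whose symbol starts with Cyp2c, so 2 others, Cyp2c6v1 and Cyp2c24, are described only for comparison. Livers came from 32 Charles River Sprague Dawley rats under basal conditions, 4 in each of 8 groups. The groups were 60-day-old Cbg-/- (KO) males, 60-day-old Cbg+/+ (WT) males, 60-day-old KO females, 60-day-old WT females, 30-day-old KO males, 30-day-old WT males, 30-day-old KO females and 30-day-old WT females. KO rats carried a Serpina6 gene disrupted by CRISPR/Cas9 in all their cells, and Serpina6 encodes corticosteroid-binding globulin (CBG), the liver-made plasma carrier of corticosterone. The study asked what CBG does for liver function, and the number of founder lines was not given in the sources used here.

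Cyp2c enzymes sit in the endoplasmic reticulum of hepatocytes and oxidise steroids, retinoids, fatty acids and drugs, with electrons passed on by the reductase Por. In adult rats several of them are known for a marked sex difference: Cyp2c11 and Cyp2c13 are male-specific steroid hydroxylases, Cyp2c12 is a female-specific hydroxylase of steroid sulphates, and Cyp2c7 is a female-predominant enzyme that hydroxylates retinoic acid. The difference is known to follow the pituitary's release of growth hormone, in separate pulses in males and nearly without pause in females, read in the hepatocyte by the growth hormone receptor and the transcription factor STAT5b. Cyp2c22 oxidises retinoids in hepatocytes, and Cyp2c23 is an arachidonic acid epoxygenase best known from the kidney.

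The 6 genes lie on chromosome 1, where the RefSeq gene table for the rat assembly GRCr8 lists 11 protein-coding Cyp2c genes. Their order is Cyp2c11, Cyp2c24, Cyp2c55, Cyp2c66, 10 coding genes of other names, Cyp2c6v1, Cyp2c7, 1 other coding gene, Cyp2c7l1, Cyp2c12, Cyp2c13, Cyp2c22, 51 other coding genes and Cyp2c23. The female-specific Cyp2c12 and the male-specific Cyp2c13 are thus neighbours, on the same strand. The promoters of the 4 members with the widest range of levels are shown because they belong to genes with opposite patterns. Each is 300 bases, 250 before to 50 after the RefSeq transcription start, read 5′ to 3′ on the gene's strand in GRCr8. Capitals mark matches on either strand to motifs named after HNF4 (CAAAGTNCA), HNF6 (ATTGANT), C/EBP (TTGCNNAA) and the glucocorticoid receptor half-site (AGAACA). The regions are chr1:246174966-246175265 on the plus strand for Cyp2c11, chr1:248787139-248787438 on the minus strand for Cyp2c13, chr1:248676985-248677284 on the minus strand for Cyp2c12 and chr1:247966144-247966443 on the plus strand for Cyp2c7.
Cyp2c11 promoter: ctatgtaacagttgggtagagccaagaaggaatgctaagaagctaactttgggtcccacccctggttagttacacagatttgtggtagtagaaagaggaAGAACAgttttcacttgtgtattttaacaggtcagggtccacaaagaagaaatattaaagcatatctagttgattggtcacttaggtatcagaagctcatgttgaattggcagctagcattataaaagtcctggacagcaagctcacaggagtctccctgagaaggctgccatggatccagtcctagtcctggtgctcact
Cyp2c13 promoter: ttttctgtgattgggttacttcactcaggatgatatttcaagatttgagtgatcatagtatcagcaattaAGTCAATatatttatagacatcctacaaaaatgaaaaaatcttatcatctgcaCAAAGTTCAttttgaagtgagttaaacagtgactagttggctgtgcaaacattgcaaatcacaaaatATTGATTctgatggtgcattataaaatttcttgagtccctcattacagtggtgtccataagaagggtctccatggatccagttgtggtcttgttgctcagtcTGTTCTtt
Cyp2c12 promoter: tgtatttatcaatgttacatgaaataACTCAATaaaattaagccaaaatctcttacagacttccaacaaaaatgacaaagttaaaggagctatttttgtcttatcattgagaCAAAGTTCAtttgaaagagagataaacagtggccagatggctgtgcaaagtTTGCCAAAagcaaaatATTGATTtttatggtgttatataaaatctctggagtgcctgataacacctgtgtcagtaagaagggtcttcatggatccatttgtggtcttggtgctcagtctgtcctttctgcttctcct
Cyp2c7 promoter: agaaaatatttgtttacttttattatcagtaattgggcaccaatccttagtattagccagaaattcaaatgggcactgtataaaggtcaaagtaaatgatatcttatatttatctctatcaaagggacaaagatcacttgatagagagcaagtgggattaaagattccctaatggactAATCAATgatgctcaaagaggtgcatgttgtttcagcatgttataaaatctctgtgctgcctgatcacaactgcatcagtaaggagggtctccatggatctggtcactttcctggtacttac

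The promoters of Cyp2c12 and Cyp2c13 were the most alike of all pairs of members, with 224 identical bases in 332 aligned columns (67.5%), although these genes were high in opposite sexes. The other pairs of members had 45.1% to 60.5% identity. Both of these promoters held the HNF4 letters, at bases -138 to -130 from the start in Cyp2c12 and -127 to -119 in Cyp2c13, and both held 2 matches to the HNF6 letters, of which the nearer began at base -71 in Cyp2c12 and -60 in Cyp2c13. The HNF4 letters were found in 1.24% of 33469 RefSeq promoters of this length, and in 2 of 6 members. HNF6 letters were found in 8.82% of promoters and in 3 of 6 members, with a single match in Cyp2c7. Cyp2c12 alone of the 4 shown held C/EBP letters, which were in 10.6% of promoters and 2 of 6 members. Cyp2c11 held 1 glucocorticoid half-site at base -151, and Cyp2c13 held 1 downstream of its start at base 43, against 20.7% of promoters and 2 of 6 members. The STAT5 letters TTCNNNGAA were in none of the 6 windows and in 8.87% of promoters, which says only that these letters are not within these 300 bases. C/EBP letters were also in the Cyp2c22 promoter, and none of the 5 motifs was in that of Cyp2c23. The motifs were chosen after the sequences were seen, and both HNF4 matches lie in the most alike pair of promoters. The shares are therefore no test of the members. These matches describe letters and were not tested as binding sites.

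Libraries held 12951969 to 21954929 reads on genes. Those of 30 days held at least 16806943 and those of 60 days at most 17133332, and titles of samples differ in form between the ages, so age, depth and any handling batch cannot be told apart. Levels are given as CPM, a gene's reads scaled to the TMM-adjusted size of its library, which are not corrected for gene length and so are compared between samples and not between genes. Serpina6 was lower in KO than in WT livers at each age and sex, with WT means 7.76 to 16.0 times the KO means and no overlap. Hepatocyte markers summed to 194000 to 282000 CPM in every library (6 of 6 markers present), and kidney tubule markers to 0 to 0.444 CPM. Photoreceptor genes summed to 1810 CPM in 1 library, 60-day KO females replicate 1, against 1.68 to 6.96 CPM in the other libraries. Counts of members that rest on that group, and the genes of the lists called between KO and WT in it, are therefore also given without it. The treatment of reads that fit several Cyp2c genes was not given in the sources used here, so reads may be shared within the family. In bulk liver, fewer cells of a type and less RNA per cell cannot be told apart. The labels do not say more of the animals than their group, and p-values measure the spread between these samples. Called means an edgeR quasi-likelihood p below 0.05 after Benjamini-Hochberg adjustment over all 11002 genes.

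Together the 6 members took 1.00 ± 0.0762% of gene reads in 60-day KO males, 0.916 ± 0.0144% in 60-day WT males, 1.06 ± 0.0526% in 60-day KO females and 1.37 ± 0.141% in 60-day WT females (SD, n = 4 each). At 30 days the shares were 0.486 ± 0.0542% in KO males, 0.523 ± 0.0404% in WT males, 0.673 ± 0.0687% in KO females and 0.599 ± 0.151% in WT females (SD, n = 4 each). Every 60-day library gave a higher share than every 30-day library, the lowest at 60 days being 0.894% and the highest at 30 days 0.804%. Behind this sum the members ranged very differently over the 8 groups. The highest and lowest group means of log2 CPM (prior count 2) differed by 13.29 for Cyp2c11, 11.76 for Cyp2c13, 6.37 for Cyp2c12, 5.23 for Cyp2c7, 1.51 for Cyp2c22 and 1.46 for Cyp2c23.

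**Figure D1:**
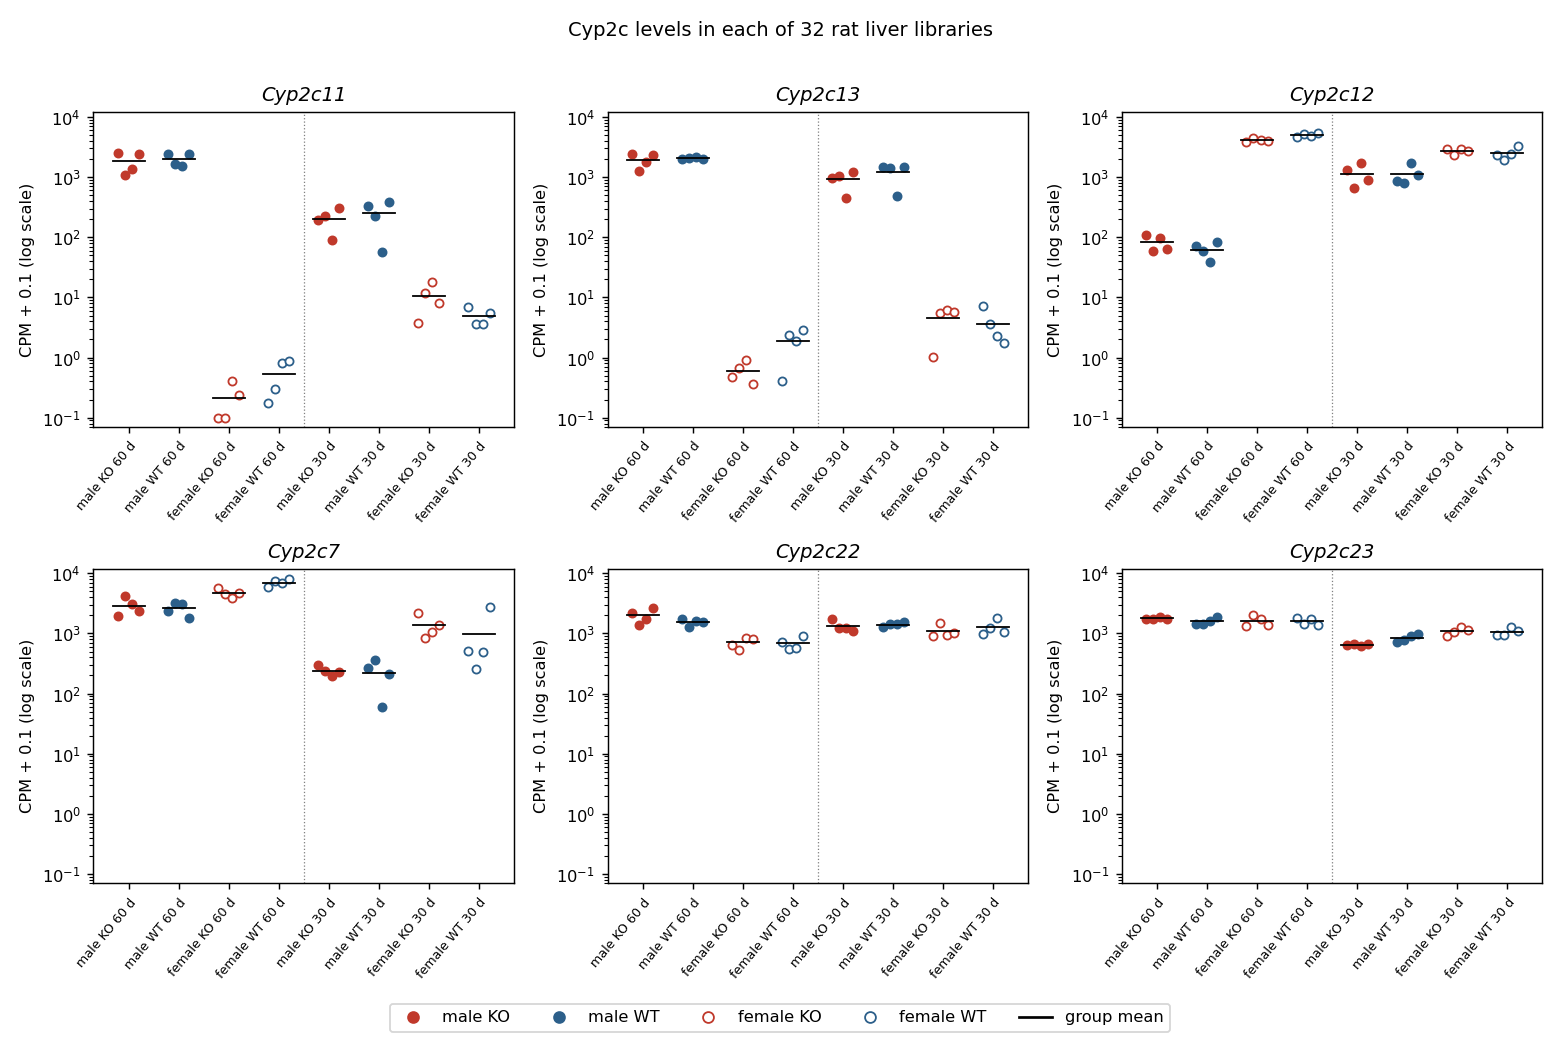
Level of each Cyp2c member in all 32 livers, in CPM plus 0.1 on a log axis; each point is 1 library, the bar is the group mean, filled points are males and open points females, and the dotted line parts 60 days (left) from 30 days (right). Cyp2c11 and Cyp2c13 separate the sexes at both ages, Cyp2c12 runs the other way and most widely at 60 days, and KO and WT points lie near each other in most pairs of groups.

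The male-specific hydroxylases set the sexes apart most widely at 60 days. Cyp2c11 had 2500, 1080, 1370 and 2390 CPM in KO males, against 0, 0, 0.307 and 0.134 CPM in KO females. In 60-day WT rats it had 2410, 1650, 1520 and 2450 CPM in males, against 0.0787, 0.202, 0.716 and 0.768 CPM in females. No female library came near any male library: the female values rest on 7 reads in all in the 4 KO libraries and 25 reads in all in the 4 WT libraries. The fitted log2 fold change, males over females, was 13.86 ± 0.89 in KO (SE, edgeR adjusted p = 1.33e-11) and 12.11 ± 0.79 in WT (SE, edgeR adjusted p = 1.53e-11), and its size is uncertain where so few reads stand in the female group.

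Cyp2c13 showed the same split. It had 2400, 1260, 1810 and 2360 CPM in 60-day KO males, against 0.375, 0.58, 0.799 and 0.267 CPM in 60-day KO females. WT males had 1970, 2050, 2160 and 2020 CPM, against 0.315, 2.29, 1.76 and 2.77 CPM in WT females. The 4 WT males lay within a narrow band (2050 ± 78.9 CPM, SD, n = 4), while KO males spread more (1960 ± 537 CPM, SD, n = 4), and the sexes did not overlap. The log2 fold change was 11.87 ± 0.69 in KO (SE, edgeR adjusted p = 2.23e-12) and 10.15 ± 0.62 in WT (SE, edgeR adjusted p = 3.89e-12).

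The female-specific Cyp2c12 ran the other way, and each male library of 60 days still held 604 reads or more counted for it. Whether reads that also fit other Cyp2c genes are among these is not known. Cyp2c12 had 108, 59.9, 95.9 and 64.8 CPM in 60-day KO males, against 3860, 4440, 4220 and 4000 CPM in KO females. WT males had 70.3, 58, 38.4 and 83.1 CPM, against 4610, 5140, 4820 and 5370 CPM in WT females. Mean CPM was 50.2-fold lower in males than in females in KO (log2 fold change -5.65 ± 0.31, SE, edgeR adjusted p = 3.47e-13) and 79.8-fold lower in WT (-6.32 ± 0.32, SE, adjusted p = 7.35e-14). Females of each genotype were tightly grouped, with a coefficient of variation of 6.15% in KO and 6.73% in WT.

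Cyp2c7, the retinoic acid hydroxylase, had lower mean levels in males at 60 days, and the difference passed the test in WT. Its CPM were 1980, 4260, 3060 and 2320 in KO males, against 5680, 4570, 3840 and 4680 in KO females, and these groups overlapped (log2 fold change -0.69 ± 0.51, SE, 95% interval -1.75 to 0.37, edgeR adjusted p = 0.401). WT males had 2320, 3250, 3140 and 1810 CPM, against 5910, 7310, 6830 and 7960 CPM in WT females. WT groups did not overlap and Cyp2c7 was 2.66-fold lower in males (log2 fold change -1.41 ± 0.52, SE, edgeR adjusted p = 0.0468). That call is narrow: leaving out any 1 of these 8 libraries raised the adjusted p to between 0.0541 and 0.114, and limma-voom gave 0.0524.

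Cyp2c22, the other retinoid-oxidising member, was higher in males at 60 days. It had 2210, 1370, 1760 and 2610 CPM in KO males, against 643, 527, 850 and 817 CPM in KO females. WT males had 1720, 1300, 1580 and 1540 CPM, against 725, 556, 569 and 916 CPM in WT females. Every male lay above every female, with means 2.8-fold higher in KO (log2 fold change 1.48 ± 0.21, SE, edgeR adjusted p = 7.3e-06) and 2.22-fold higher in WT (1.15 ± 0.21, SE, adjusted p = 0.000137).

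The epoxygenase Cyp2c23 was the member with no call between the sexes at 60 days in either genotype. It had 1740, 1740, 1890 and 1740 CPM in KO males, against 1320, 2000, 1750 and 1360 CPM in KO females. WT males had 1430, 1460, 1590 and 1860 CPM, against 1820, 1440, 1730 and 1390 CPM in WT females. The groups overlapped, with log2 fold changes of 0.15 (95% interval -0.11 to 0.40) in KO and -0.01 (-0.27 to 0.25) in WT. A difference of more than 0.40 either way is thus outside both intervals.

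In all, 4 of 6 members were called between males and females in 60-day KO livers (3 higher and 1 lower in males), where 18.5% of all genes tested were called, and 5 of 6 in 60-day WT livers (3 higher and 2 lower), where 26.4% of all genes were. The median log2 fold change of the 6 members was 0.81 in KO and 0.57 in WT, against -0.023 in KO and 0 in WT over all genes. Without 60-day KO females replicate 1, the count in KO was again 4 of 6.

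**Figure D2:**
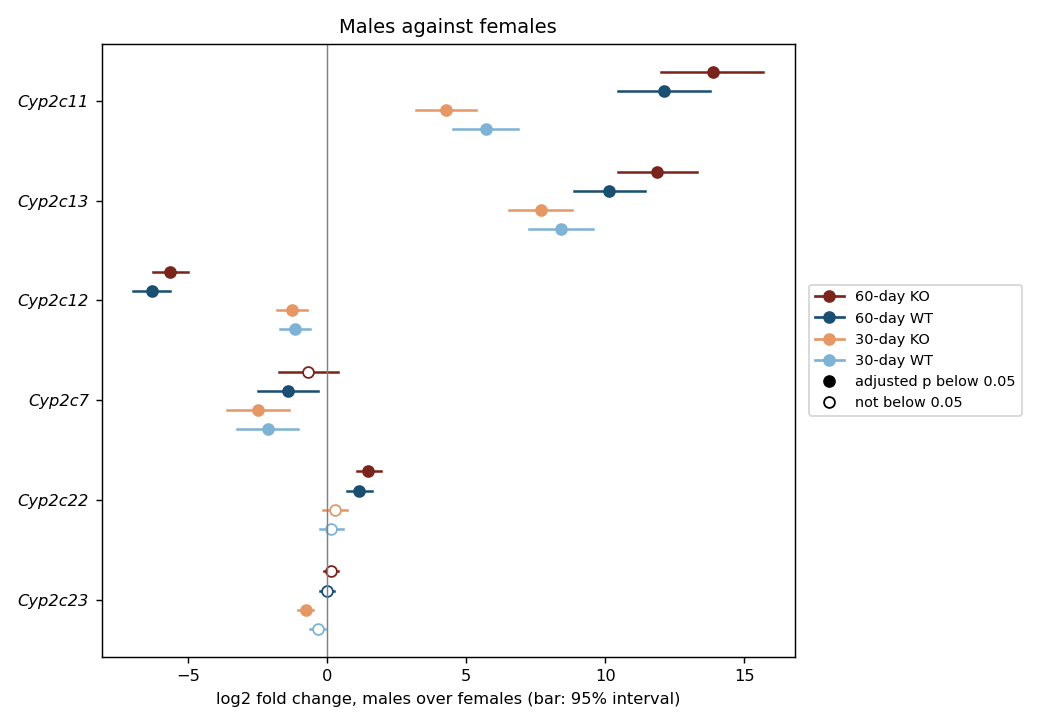
Log2 fold change, males over females, of each member at 60 and 30 days in KO and WT rats (points), with 95% intervals (bars); filled points passed the adjusted threshold of 0.05. Cyp2c11 and Cyp2c13 lie far to the right and Cyp2c12 to the left of 0 in all 4 pairs, with differences at 60 days from -6.32 for Cyp2c12 in WT to 13.86 for Cyp2c11 in KO.

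At 30 days Cyp2c11, Cyp2c13, Cyp2c12 and Cyp2c7 also differed between the sexes. Cyp2c11 had 191, 224, 88.3 and 306 CPM in KO males, against 3.64, 11.9, 18 and 8.03 CPM in KO females, and 328, 223, 56.4 and 391 CPM in WT males, against 6.73, 3.51, 3.55 and 5.4 CPM in WT females. Means were 19.5-fold higher in KO males (log2 fold change 4.28 ± 0.53, SE, edgeR adjusted p = 1.73e-05) and 52-fold higher in WT males (5.70 ± 0.57, SE, adjusted p = 6.59e-07). The lowest male library, at 56.4 CPM, still lay above the highest female library, at 18 CPM.

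Cyp2c13 also separated the sexes at 30 days. It had 982, 1030, 447 and 1210 CPM in 30-day KO males, against 0.935, 5.42, 5.98 and 5.66 CPM in KO females, and 1480, 1400, 489 and 1490 CPM in WT males, against 6.97, 3.45, 2.2 and 1.63 CPM in WT females. Male means were 204-fold higher in KO (log2 fold change 7.67 ± 0.55, SE, edgeR adjusted p = 1.32e-09) and 341-fold higher in WT (8.40 ± 0.57, SE, adjusted p = 3.56e-10). In each genotype 1 male lay well below the other 3, and it was replicate 3 in both, the replicate that was also lowest for Cyp2c11.

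Cyp2c12 was high in 30-day livers of both sexes. It had 1310, 654, 1720 and 898 CPM in KO males, against 2910, 2370, 2980 and 2750 CPM in KO females. WT males had 866, 798, 1710 and 1090 CPM, against 2310, 1900, 2460 and 3250 CPM in WT females. The sexes did not overlap, but the means were only 2.4-fold lower in KO males (log2 fold change -1.26 ± 0.26, SE, edgeR adjusted p = 0.00721) and 2.22-fold lower in WT males (-1.15 ± 0.26, SE, adjusted p = 0.0141). Fitted with only the groups compared, the adjusted p was 0.0531 in KO and 0.0819 in WT, and in a fit of the 30-day libraries with the number in their titles as a covariate it was 0.0857 in KO and 0.0553 in WT. The 30-day libraries fitted without that number kept both calls. The WT call was also lost without WT females replicate 4 (adjusted p = 0.0697), without WT males replicate 1 (0.0677) and without WT males replicate 2 (0.0629).

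Cyp2c7 at 30 days was lower in males than in females and uneven among females. It had 300, 238, 194 and 231 CPM in KO males, against 2170, 842, 1060 and 1380 CPM in KO females, with no overlap (log2 fold change -2.50 ± 0.54, SE, edgeR adjusted p = 0.0112). WT males had 264, 362, 59.2 and 208 CPM, against 508, 256, 485 and 2710 CPM in WT females. WT females replicate 4 stood above every other 30-day library, and the other 3 averaged 416 ± 139 CPM (SD, n = 3). With it the log2 fold change was -2.15 ± 0.53 (SE, edgeR adjusted p = 0.0305), and without it -0.90 (adjusted p = 0.369). The WT call was also lost without WT males replicate 1, 3 or 4 (adjusted p 0.0723 to 0.0936). Fitting the 30-day libraries alone ended the call in both genotypes (adjusted p = 0.0714 in KO and 0.13 in WT). The 30-day titles carry a number, which is 1 for WT females replicates 1 to 3 and 2 for replicate 4 and for all 4 KO females; the labels do not say what it stands for. In a fit of the 30-day libraries with this number as a covariate neither genotype was called: the KO value of Cyp2c7 was -1.28 (adjusted p = 0.496) and the WT value -2.18 (adjusted p = 0.05).

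Cyp2c22 did not pass the test between the sexes at 30 days. KO males had 1710, 1240, 1250 and 1080 CPM, against 909, 1470, 930 and 1010 CPM in KO females. WT males had 1270, 1430, 1410 and 1520 CPM, against 987, 1220, 1830 and 1050 CPM in WT females. The groups overlapped, with log2 fold changes of 0.29 (95% interval -0.14 to 0.72) in KO and 0.14 (-0.28 to 0.57) in WT.

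Cyp2c23 was lower in 30-day KO males, at 646, 665, 613 and 657 CPM, against 919, 1070, 1280 and 1150 CPM in KO females. The groups did not overlap (log2 fold change -0.78 ± 0.13, SE, edgeR adjusted p = 0.000407). WT males had 710, 779, 896 and 970 CPM, against 952, 957, 1260 and 1110 CPM in WT females, and these overlapped in 1 male (-0.35 ± 0.13, SE, adjusted p = 0.182). The sex-by-genotype difference of Cyp2c23 at 30 days was -0.43 ± 0.18 (SE, edgeR unadjusted p = 0.0237, adjusted p = 0.86), so a difference between the genotypes was not shown.

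At 30 days 5 of 6 members were called between males and females in KO livers (2 higher and 3 lower in males), where 2.24% of all genes were called, and 4 of 6 in WT livers (2 higher and 2 lower), where 2.07% of all genes were. The members' median log2 fold change was -0.24 in KO and -0.10 in WT, against 0.002 over all genes in each.

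The test of the sex difference at 60 days against that at 30 days, in log2 units, was passed by 5 members in KO livers (4 higher and 1 lower, where 4.69% of all genes passed) and by 3 members in WT livers (2 higher and 1 lower, where 9.00% of all genes passed). The male excess of Cyp2c11 was greater at 60 days by 9.58 ± 1.04 in KO and 6.42 ± 0.92 in WT (SE, edgeR adjusted p = 1.49e-06 and 5.29e-05). Both values rest on the few reads of 60-day females. Cyp2c12 moved by -4.38 ± 0.38 in KO and -5.17 ± 0.39 in WT (SE, edgeR adjusted p = 2.09e-08 and 1.42e-09), the same direction as its female excess. For Cyp2c13 the value was 4.21 ± 0.81 in KO (SE, edgeR adjusted p = 0.00231, limma-voom 0.0952) and 1.75 ± 0.70 in WT (SE, adjusted p = 0.128). Cyp2c22 passed in both genotypes, by 1.19 ± 0.30 in KO and 1.00 ± 0.30 in WT (SE, edgeR adjusted p = 0.016 and 0.0309). The WT value lost its call without any 1 of 5 libraries, 30-day WT females replicate 3, 30-day WT males replicate 1, 60-day WT females replicate 2 or 3 or 60-day WT males replicate 1 (adjusted p 0.0588 to 0.0872). Cyp2c23 passed in KO, by 0.92 ± 0.18 (SE, edgeR adjusted p = 0.00188), and had 0.34 ± 0.18 in WT (adjusted p = 0.255). Cyp2c7 did not pass in either, at 1.81 ± 0.73 in KO and 0.74 ± 0.73 in WT (SE, edgeR adjusted p = 0.179 and 0.603), though with only the KO groups fitted its KO value passed (adjusted p = 0.0172). The members' median was 1.5 in KO and 0.87 in WT, against -0.016 in KO and -0.001 in WT over all genes. Without 60-day KO females replicate 1, the count in KO was again 5.

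Male livers of 60 days had more Cyp2c11 and Cyp2c7 and less Cyp2c12 than those of 30 days. Cyp2c11 averaged 1830 ± 717 CPM in 60-day KO males and 202 ± 90.1 CPM in 30-day KO males, and 2010 ± 492 CPM in 60-day WT males and 250 ± 146 CPM in 30-day WT males (SD, n = 4 each). It was 9.06-fold higher at 60 days in KO (log2 fold change 3.18 ± 0.49, SE, edgeR adjusted p = 1.89e-05) and 8.04-fold higher in WT (3.01 ± 0.49, SE, adjusted p = 3.33e-05), with no overlap. Cyp2c7 was 12.1-fold higher in KO males at 60 days (3.59 ± 0.57, SE, edgeR adjusted p = 2.78e-05) and 11.8-fold higher in WT males (3.56 ± 0.57, SE, adjusted p = 2.8e-05). Every 60-day male had at least 1810 CPM of this female-predominant gene and every 30-day male at most 362 CPM. Cyp2c12 was 13.9-fold lower in 60-day than in 30-day KO males (-3.80 ± 0.29, SE, edgeR adjusted p = 2.51e-10) and 17.9-fold lower in WT males (-4.16 ± 0.29, SE, adjusted p = 8.68e-11). The lowest 30-day male had 654 CPM of it, and the highest 60-day male 108 CPM.

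Cyp2c13, the neighbour of Cyp2c12, did not share its lower level at 60 days in males. It was 2.14-fold higher in 60-day KO males (log2 fold change 1.10 ± 0.40, SE, edgeR adjusted p = 0.043), a call that was lost without any 1 of 6 of the 8 libraries (adjusted p 0.0309 to 0.139 over all 8) and under 5 of 7 alternatives (0.0142 to 0.224 over all 7). In WT males its log2 fold change was 0.75 ± 0.40 (SE, adjusted p = 0.16), although the ages did not overlap. Cyp2c22 was 1.5-fold higher at 60 days in KO males, with overlap (0.59 ± 0.21, SE, edgeR adjusted p = 0.0369), and had 0.13 ± 0.21 in WT males (adjusted p = 0.69). Leaving out single libraries, 30-day KO males replicate 2, 3 or 4 or 60-day KO males replicate 1 or 4, ended that call (adjusted p 0.0811 to 0.158). Cyp2c23 was 2.76-fold higher in 60-day KO males (1.46 ± 0.13, SE, edgeR adjusted p = 1.2e-09) and 1.89-fold higher in 60-day WT males (0.92 ± 0.13, SE, adjusted p = 1.89e-06), with no overlap between ages.

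In females edgeR called the male-specific members lower at 60 than at 30 days in 3 of 4 tests. Of all genes it called 22.7% between the ages in KO females and 33.1% in WT females. Cyp2c11 averaged 0.11 ± 0.146 CPM in 60-day KO females and 10.4 ± 6.1 CPM in 30-day KO females, and 0.441 ± 0.352 CPM in 60-day WT females and 4.8 ± 1.56 CPM in 30-day WT females (SD, n = 4 each). The 30-day females had 835 reads in KO and 379 reads in WT over their 4 libraries, so the gene was clearly detected at that age. It was lower at 60 days in KO (log2 fold change -6.40 ± 0.96, SE, edgeR adjusted p = 1.89e-05) and in WT (-3.41 ± 0.83, SE, adjusted p = 0.00234), but limma-voom did not call either (adjusted p = 0.0965 and 0.157). Cyp2c13 was 8.9-fold lower at 60 days in KO females (-3.11 ± 0.70, SE, edgeR adjusted p = 0.00175, limma-voom 0.12). In WT females its ages overlapped (-0.99 ± 0.58, SE, adjusted p = 0.196).

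The female-specific Cyp2c12 was 2.01-fold higher in 60-day WT females (log2 fold change 1.01 ± 0.26, SE, edgeR adjusted p = 0.0035). In KO females, with no overlap between ages either, it had 0.58 ± 0.26 (SE, adjusted p = 0.106), and it passed when only these groups were fitted (adjusted p = 0.00144). Cyp2c7 was 3.44-fold higher at 60 days in KO females (1.78 ± 0.53, SE, edgeR adjusted p = 0.0155) and 7.06-fold higher in WT females (2.82 ± 0.55, SE, adjusted p = 0.000268). Without 30-day KO females replicate 2 the KO value was 1.61 (adjusted p = 0.0551). Cyp2c22 was 1.52-fold lower at 60 days in KO females (-0.61 ± 0.21, SE, adjusted p = 0.0369) and 1.84-fold lower in WT females (-0.88 ± 0.21, SE, adjusted p = 0.00193). The KO call of Cyp2c22 was lost without 60-day KO females replicate 1 (-0.56, adjusted p = 0.0932) or replicate 2 (0.128) and without 30-day KO females replicate 2 (0.183) or replicate 4 (0.0518). Cyp2c23 was higher at 60 days in both, 1.45-fold in KO (0.54 ± 0.13, SE, edgeR adjusted p = 0.00203) and 1.49-fold in WT (0.58 ± 0.13, SE, adjusted p = 0.00071).

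In KO females 5 of 6 members were called between 60 and 30 days (2 higher and 3 lower, beside 22.7% of all genes called), and in WT females 5 (3 higher and 2 lower, beside 33.1%). In KO males all 6 were called (5 higher and 1 lower, beside 28.4%), and in WT males 4 (3 higher and 1 lower, beside 31.5%). Without 60-day KO females replicate 1, the count in KO females was 4 of 6, beside 20.1% of all genes. The count in KO males ran from 4 to 6 over the alternatives and over fits without single libraries. Cyp2c23 was thus the member called higher at 60 days in all 4 combinations of sex and genotype, together with Cyp2c7. The members' median log2 fold change was -0.03 in KO females (-0.004 over all genes), -0.15 in WT females (0.011), 1.28 in KO males (-0.014) and 0.83 in WT males (-0.009). Stellate cell markers summed to 84.2 to 158 CPM in 60-day livers, against 190 to 340 CPM in 30-day livers, and cholangiocyte markers to 11.8 to 22.1 CPM at 60 days, against 25.2 to 35.6 CPM at 30 days. Their part in the age differences was not tested.

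**Figure D3:**
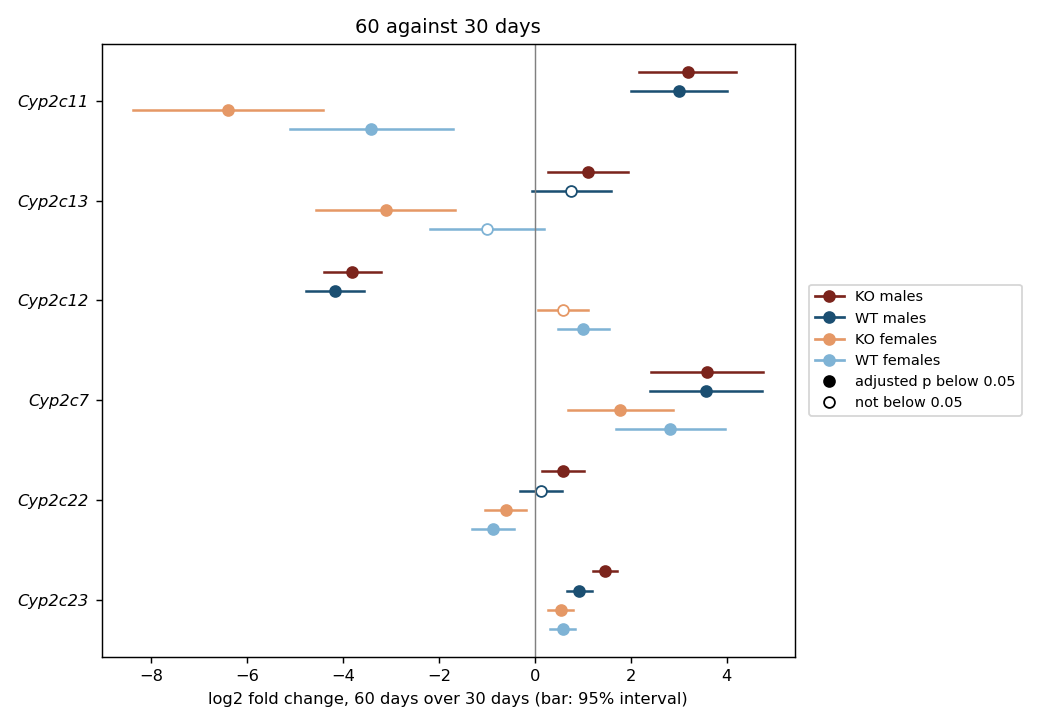
Log2 fold change, 60 over 30 days, of each member in KO males, WT males, KO females and WT females (points), with 95% intervals (bars); filled points passed the adjusted threshold of 0.05. Cyp2c11 and Cyp2c12 lie on opposite sides of 0 in the 2 sexes, while Cyp2c7 and Cyp2c23 lie above 0 in all 4, from 0.54 for Cyp2c23 in KO females to 3.59 for Cyp2c7 in KO males.

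Males of 30 days differed widely from one another. The ratio of Cyp2c11 to Cyp2c12 CPM, which is not corrected for gene length and is read only between libraries, had a log2 value of -4.28 to -1.55 in 30-day KO males and -4.92 to -1.40 in 30-day WT males. At 60 days it lay between 3.83 and 5.20 in KO males and between 4.82 and 5.30 in WT males. Females lay far below, at -15.21 to -13.28 in KO and -14.53 to -12.50 in WT at 60 days, and at -9.60 to -7.36 in KO and -9.39 to -8.40 in WT at 30 days. All 8 males of 30 days thus lay between the males of 60 days and the females of either age. Replicate 3 was the lowest male of its group in both genotypes, with the least Cyp2c11 and Cyp2c13 and the most Cyp2c12. Of 25 genes outside Cyp2c that were called higher, by at least 1 log2 unit, in 30-day males than in 30-day females in both genotypes, 16 had their lowest male value in replicate 3 of KO and 15 in replicate 3 of WT. The other replicates each had 0 to 6 of them in KO and 1 to 5 in WT. Of 21 genes called lower in males in the same way, 16 had their highest male value in KO replicate 3, but only 5 in WT replicate 3 and 8 in WT replicate 4. How often each replicate was lowest or highest over all genes tested was not counted.

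**Figure D4:**
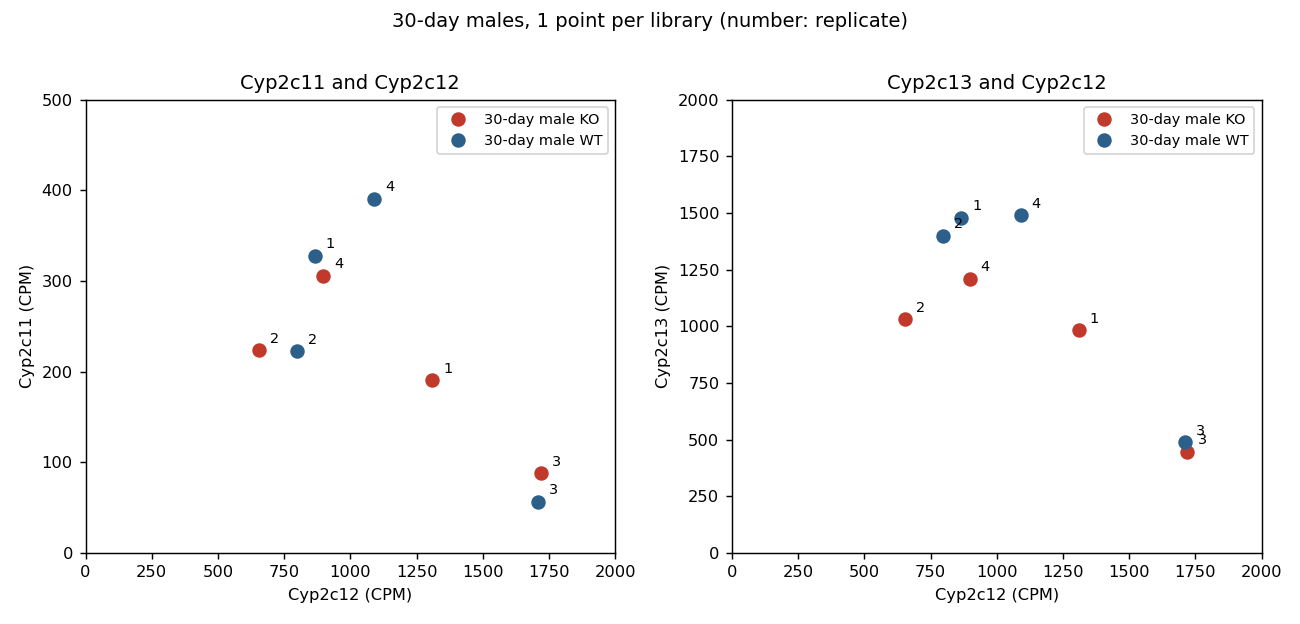
Cyp2c11 (left panel) and Cyp2c13 (right panel) in CPM on the vertical axis against Cyp2c12 in CPM on the horizontal axis in the 8 males of 30 days, 1 point per liver labelled by replicate, KO and WT in 2 colours. Replicate 3 of each genotype sits at the lower right, with 1720 CPM of Cyp2c12 in KO and 1710 CPM in WT.

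The knockout was tested within each sex and age, and no member passed in any of the 4 comparisons. The 24 log2 fold changes, KO over WT, ran from -1.88 to 1.12. The 0 members called stand beside 0.300% of all genes called in 30-day females, 0.0545% in 30-day males, 6.77% in 60-day females and 0.209% in 60-day males. Leaving out single libraries, the genes called numbered 4 to 60 in 30-day females, 1 to 7 in 30-day males, 401 to 963 in 60-day females and 2 to 53 in 60-day males. The unadjusted p was below 0.05 for 1 member in 30-day females (10.7% of all genes), 1 in 30-day males (5.94%), 1 in 60-day females (20.8%) and 0 in 60-day males (10.8%). With only the groups contrasted fitted, these numbers were 0, 1, 3 and 0, and the share of all genes in such fits was not counted. Groups did not overlap for 1 member in 30-day males (6.44% of all genes) and for 2 members in 60-day females (8.43%). DESeq2 called 1 member, Cyp2c13 in 60-day females, where it called 928 over all genes, and limma-voom called 0 members. The members' median log2 fold change was 0.24 in 30-day females (0.01 over all genes), -0.20 in 30-day males (0.004), -0.43 in 60-day females (0.008) and 0.16 in 60-day males (0.001).

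The comparison of KO and WT with the most genes called was that in 60-day females (6.77%). There every KO library lay below every WT library in both female-predominant members, and neither passed the test. Cyp2c7 had 5680, 4570, 3840 and 4680 CPM in KO, against 5910, 7310, 6830 and 7960 CPM in WT. Its log2 fold change was -0.58 ± 0.51 (SE, 95% interval -1.64 to 0.48, edgeR adjusted p = 0.573), which is within the spread that this fit gives the gene over all groups. That spread takes in groups more varied than these, whose coefficient of variation was 16.1% in KO and 12.3% in WT. In 30-day WT females it was 117%. No alternative called Cyp2c7 here, and their adjusted p ran from 0.0927 to 0.621. Cyp2c12 averaged 4130 ± 254 CPM in KO and 4990 ± 335 CPM in WT (SD, n = 4 each), a log2 fold change of -0.27 ± 0.26 (SE, 95% interval -0.80 to 0.25, adjusted p = 0.599). The male-specific Cyp2c13 had 31 reads over the 4 KO libraries and 101 over the 4 WT libraries, with overlap (-1.79 ± 0.81, SE, edgeR adjusted p = 0.205). DESeq2 gave -1.81 (adjusted p = 0.0303), and over the alternatives tried the adjusted p ran from 0.0303 to 0.627. Cyp2c11 had too few reads for a useful value (-1.88 ± 1.67, SE, adjusted p = 0.573). Cyp2c22 and Cyp2c23 gave 0.04 (95% interval -0.39 to 0.47) and 0.01 (-0.24 to 0.27). Without KO replicate 1, which held the photoreceptor reads, Cyp2c7 had -0.68, Cyp2c12 -0.24 and Cyp2c13 -1.68, again 0 members were called, and 401 genes were called in place of 745.

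In 30-day males the member nearest to a call was Cyp2c23, which had 645 ± 22.8 CPM in KO and 839 ± 116 CPM in WT (SD, n = 4 each). All 4 KO livers lay below all 4 WT livers (log2 fold change -0.38 ± 0.13, SE, edgeR unadjusted p = 0.00552, adjusted p = 0.516). The change of Cyp2c23 with age differed between male genotypes by 0.55 ± 0.18 (SE, edgeR unadjusted p = 0.00464, adjusted p = 0.587). In 30-day females Cyp2c11 had 10.4 ± 6.1 CPM in KO and 4.8 ± 1.56 CPM in WT (SD, n = 4 each), with overlap (1.12 ± 0.52, SE, edgeR unadjusted p = 0.0426, adjusted p = 0.446). Cyp2c7 in 30-day females gave 0.46 ± 0.51 (SE, edgeR adjusted p = 0.813), and -0.17 to 1.03 over the alternatives. Its WT mean rests on replicate 4, being 991 CPM with that library and 416 CPM without it. In these females the title number was 2 in all KO and 1 in WT replicates 1 to 3. For Cyp2c11 and Cyp2c7 alike, that number and genotype can thus hardly be told apart. In 60-day males Cyp2c12 had 0.40 ± 0.26 and Cyp2c22 0.37 ± 0.21 (SE, edgeR adjusted p = 0.618 and 0.548), each with overlap. The male-specific pair in 60-day males gave -0.13 (95% interval -1.06 to 0.79) for Cyp2c11 and -0.07 (-0.89 to 0.75) for Cyp2c13. These intervals leave room for a change of up to about 1 log2 unit, so a p above the threshold does not show equal levels.

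**Figure D5:**
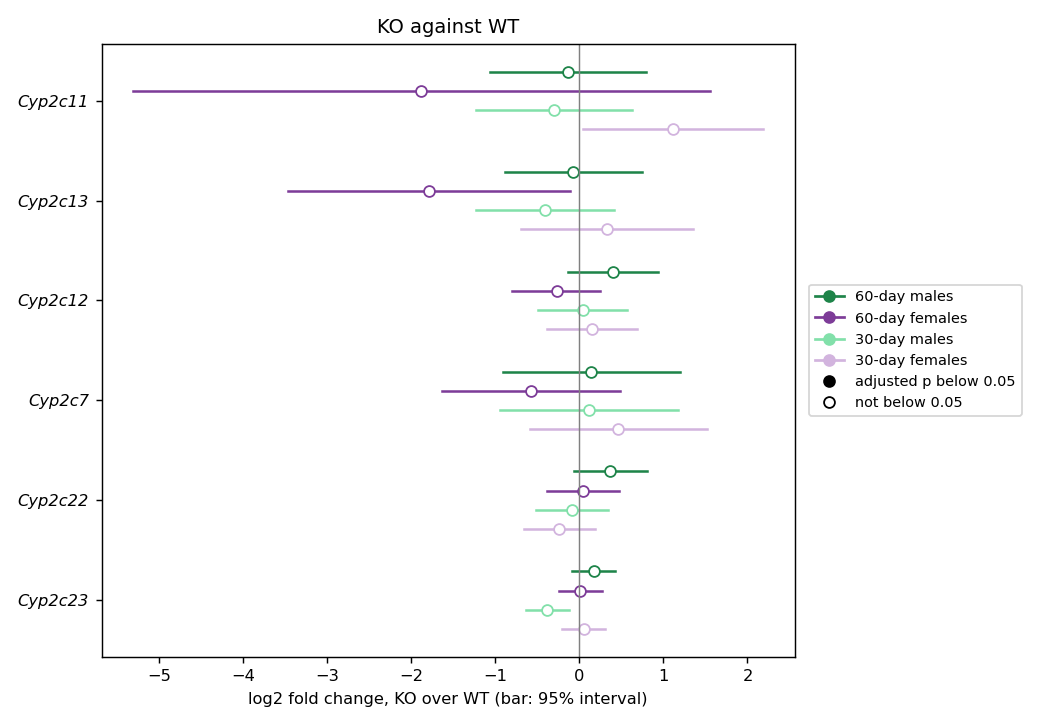
Log2 fold change, KO over WT, of each member in 60-day males, 60-day females, 30-day males and 30-day females (points), with 95% intervals (bars); all points are open because none passed the adjusted threshold of 0.05. Intervals are widest for Cyp2c11 and Cyp2c13 in 60-day females, and those of Cyp2c23 the narrowest.

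The knockout was also tested for a change of the sex and age differences. Of 6 members 0 were called for sex by genotype at 30 days (0.00% of all genes, 0 called with 606 genes at an unadjusted edgeR p below 0.05), 0 at 60 days (0.136%), 0 for age by genotype in females (2.96%) and 0 in males (0.00909%). Unadjusted p below 0.05 was reached by 1 member for sex by genotype at 30 days (5.51% of all genes), 0 at 60 days (10.6%), 1 for age by genotype in females (17.6%) and 1 in males (5.34%), and DESeq2 and limma-voom called 0. With only the groups contrasted fitted, 3 members reached it for sex by genotype at 60 days and 3 for age by genotype in females. The share of all genes reaching it in such fits was not counted. Without 60-day KO females replicate 1, age by genotype in females had 0 members and 1.71% of all genes called. The 24 values ran from -2.99 to 1.74. The members' median was -0.39 for sex by genotype at 30 days (-0.009 over all genes), 0.70 at 60 days (-0.015), -0.73 for age by genotype in females (-0.001) and 0.35 in males (0.002). Age by genotype in females gave -2.12 ± 0.96 for Cyp2c13 (SE, edgeR adjusted p = 0.245) and -1.04 ± 0.73 for Cyp2c7 (SE, adjusted p = 0.492). Without 30-day WT females replicate 4, the library with the high Cyp2c7, the Cyp2c7 value was -2.29 (adjusted p = 0.02).

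The order of group means differed among members. Cyp2c11 ran from 60-day WT males (2010 CPM) through 60-day KO males, 30-day WT and KO males, 30-day KO and WT females and 60-day WT females to 60-day KO females (0.11 CPM). Within each age and sex its KO and WT neighbours overlapped, and the steps between those pairs did not. Cyp2c12 ran from 60-day WT females (4990 CPM) to 60-day WT males (62.5 CPM), with overlap between KO and WT except in 60-day females. Cyp2c13 had all male groups above all female groups, and its 4 male groups overlapped in a chain, as did its 4 female groups. Cyp2c7 ran from 7000 CPM in 60-day WT females to 223 CPM in 30-day WT males, and each neighbour from 60-day KO females downwards overlapped the next. In Cyp2c22 the groups of 60-day females had the lowest means (709 CPM in KO and 692 CPM in WT), below all others (1080 CPM and above). Its next group up, 30-day KO females, did not overlap 60-day KO females, but a 60-day WT female at 916 CPM lay above the lowest 30-day KO female at 909 CPM. Cyp2c23 had all 60-day groups above all 30-day groups, with 30-day KO males lowest at 645 CPM.

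The other Cyp2c genes of the table also differed between the sexes at 60 days. Cyp2c6v1 was lower in males, with mean levels of 1330 CPM in KO males against 1780 CPM in KO females, and 1280 CPM in WT males against 1960 CPM in WT females. Its log2 fold changes were -0.42 ± 0.13 in KO and -0.62 ± 0.13 in WT (SE, edgeR adjusted p = 0.0231 and 0.000659). Cyp2c24, the neighbour of Cyp2c11 with 65.6% promoter identity to it, had 148 reads over the 60-day KO males against 2 reads over the KO females, and 299 reads over the WT males against 4 over the WT females. It was called higher in males in both (edgeR adjusted p = 0.00108 in KO and 0.000132 in WT). Neither gene was called between KO and WT in any sex and age by edgeR.

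Genes of growth hormone and STAT5 signalling were read beside the members because these P450s are known to follow that axis. The counts of this list and of those that follow are read beside the share of all genes called, males against females at 60 days, which was 18.5% in KO and 26.4% in WT, with a median log2 fold change of -0.023 in KO and 0 in WT. Of 19 tested, 4 were higher and 4 lower in males than in females in 60-day KO livers, and 2 higher and 6 lower in 60-day WT livers, with median log2 fold changes of -0.04 in KO and -0.24 in WT. Cux2, a female-specific repressor of male-biased liver genes, had 2.92, 8.72, 26.9 and 1.56 CPM in 60-day KO males, against 148, 164, 140 and 115 CPM in KO females. WT males had 1.13, 1.12, 2.22 and 1.73 CPM, against 161, 111, 142 and 150 CPM in WT females. It was lower in males by log2 values of -3.79 ± 0.51 in KO and -6.51 ± 0.63 in WT (SE, edgeR adjusted p = 4.33e-06 and 1.55e-08). KO male replicates 1, 2 and 3 stood above all WT males, but KO over WT did not pass (2.72 ± 0.65, SE, edgeR adjusted p = 0.0922).

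Bcl6, a male-biased repressor, also varied among KO males, with replicates 1 and 3 high. It had 82.9, 13.5, 79.8 and 11.6 CPM in 60-day KO males, against 9.22, 11.1, 4.89 and 12 CPM in WT males (KO over WT 2.34 ± 0.62, SE, edgeR adjusted p = 0.129). Against females of its genotype it was called higher in 60-day KO males (4.00 ± 0.70, SE, adjusted p = 0.000147) and was not called in 60-day WT males (1.88, adjusted p = 0.0663). The growth hormone receptor Ghr was lower in males at 60 days, by -0.56 in KO and -0.54 in WT (edgeR adjusted p = 0.000957 and 0.000985). Prlr, the prolactin receptor, was lower in males by -4.36 ± 0.73 in KO and -5.13 ± 0.76 in WT, and Igf1 was higher by 0.88 ± 0.12 in KO and 0.61 ± 0.12 in WT (SE, edgeR adjusted p at most 0.000229). For KO over WT 0 of 19 were called by edgeR in any sex and age, with an unadjusted p below 0.05 for 2 in 30-day females (10.7% of all genes), 1 in 30-day males (5.94%), 4 in 60-day females (20.8%) and 6 in 60-day males (10.8%). DESeq2 called 1 higher and 3 lower in 60-day females and 2 higher in 60-day males. Over all genes DESeq2 called 928 in 60-day females and 64 in 60-day males. With limma-voom 1 was lower in 60-day females and 0 were called in 60-day males. Over all genes limma-voom called 559 in 60-day females and 21 in 60-day males.

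Other sex-dependent P450s also set the sexes apart. Of 23 tested, 10 were higher and 4 lower in males in 60-day KO livers and 11 higher and 6 lower in WT, with medians of 0.75 in KO and 0.72 in WT. The steroid hydroxylases Cyp3a2 and Cyp2a2 were higher in males by 9.80 ± 0.47 and 8.47 ± 0.51 in KO and by 10.10 ± 0.49 and 10.58 ± 0.60 in WT, and the fatty acid hydroxylase Cyp4a2 by 5.31 ± 0.25 in KO and 5.47 ± 0.25 in WT (log2 fold change ± SE, edgeR adjusted p at most 4.12e-12). At 30 days 4 were higher and 0 lower in KO males, and 7 higher and 1 lower in WT males, beside 2.24% of all genes in KO and 2.07% in WT. In 60-day females 1 was higher and 6 were lower in KO than in WT (median -0.24, against 0.008 over all genes), beside 6.77% of all genes called, among them Cyp3a9 (-2.29 ± 0.30, 87.4 CPM in KO and 426 CPM in WT), the arylamine-oxidising Cyp1a2 (-1.09 ± 0.16) and Cyp2d3 (-0.75 ± 0.19, SE, edgeR adjusted p at most 0.0137). Without 60-day KO females replicate 1, 0 were higher and 2 lower, beside 3.64% of all genes: Cyp3a9 and Cyp1a2 were called again, and Cyp2d3 was not (adjusted p = 0.0591). Whether these genes and the Cyp2c members differ in their response was not tested.

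Genes of substrate pathways and of the P450 cycle were counted in the same way, and their counts of KO against WT stand beside 6.77% of all genes called in 60-day females and 0.209% in 60-day males. Of 18 retinoid genes, 5 were higher and 3 lower in 60-day KO males than females, and 6 higher and 4 lower in WT. Rdh16, a retinol dehydrogenase, was higher in males by 5.37 ± 0.54 in KO and 5.83 ± 0.54 in WT, and Cyp26a1, the main retinoic acid hydroxylase, was lower by -2.76 ± 0.41 in KO and -2.82 ± 0.40 in WT (SE, edgeR adjusted p at most 1.18e-05). In KO against WT 60-day females Aldh1a1, which makes retinoic acid, was higher (0.91 ± 0.22) and Adh7 and Rdh11 were lower (-0.85 ± 0.20 and -0.38 ± 0.09, SE, edgeR adjusted p at most 0.0124), and Rdh11 lost its call without 60-day KO females replicate 1 (adjusted p = 0.0531). Of 18 arachidonic acid genes, 6 were higher and 0 lower in 60-day KO males and 9 higher and 3 lower in WT males. Ephx1, an epoxide hydrolase, was higher in KO than in WT 60-day females (1.27 ± 0.26, 1040 CPM in KO and 431 CPM in WT, SE, edgeR adjusted p = 0.00321), and Cyp4a8, at under 1 CPM in both, was lower, a call lost without that library (adjusted p = 0.093). Aldh1a1, Adh7 and Ephx1 were called without it too.

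Of 13 genes of electron transfer and haem, 3 were higher and 2 lower in 60-day KO males and 2 higher and 1 lower in WT males. Pgrmc1, a haem-binding partner of P450s, was higher by 0.58 ± 0.09 in KO and 0.54 ± 0.09 in WT, and the cytochrome Cyb5b lower by -0.66 ± 0.12 in KO and -1.08 ± 0.12 in WT (SE, edgeR adjusted p at most 0.00019). None was called for KO over WT at 60 days by edgeR. The edgeR unadjusted p was below 0.05 for 3 in females, where 20.8% of all genes had one, and 0 in males, where 10.8% had. DESeq2 called 1 in 60-day females, where it called 928 over all genes, and limma-voom called 0. Of 16 xenobiotic and steroid receptors, 2 were higher and 2 lower in 60-day KO males and 3 higher and 5 lower in WT males, and 1 was lower in 60-day KO than WT females, the xenobiotic sensor Nr1i3 (-2.28 ± 0.52, SE, edgeR adjusted p = 0.00805). Of 17 hepatocyte transcription factors, 1 was higher in 60-day KO than WT females (Dbp, 2.27 ± 0.45, SE, edgeR adjusted p = 0.0026) and 1 lower in 60-day KO than WT males (Cebpb, -1.01 ± 0.17, SE, edgeR adjusted p = 0.00792). In 60-day females a single call among 16 or 17 genes, as for Nr1i3 and Dbp, is near the 6.77% of all genes. In 60-day males, where Cebpb was called, 0.209% of all genes were. Dbp is also a time-of-day gene, and of 12 of these 4 were higher and 1 lower in 60-day KO females, with Per3 at 1.80 ± 0.31 and Per2 at 1.60 ± 0.28 (SE, edgeR adjusted p at most 0.000986). Without 60-day KO females replicate 1 Nr1i3, Per3 and Per2 were called again, Dbp had 1.45 (edgeR adjusted p = 0.0184), and of the 12 time-of-day genes 4 were higher and 0 lower. The part of sampling time in any value of the members was not tested.

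The genes whose 8 group means of log2 CPM, each centred on its own mean, lay nearest to a member's were found among all genes tested outside Cyp2c. The measure is the root mean square difference over the 8 groups of the 32 libraries. Nearest to Cyp2c12 was Sult2a6 (0.55), followed by Igfbp2 (0.76) and Car12 (0.80). Cyp2a2 was nearest to both Cyp2c11 and Cyp2c13 (1.52 each), followed by Slc22a8 (1.83) and Hsd3b5 (1.96) for Cyp2c11 and by Ust5r (1.72) and Hsd3b5 (2.23) for Cyp2c13. No gene came nearer to these members than 1.52, a looser match than the nearest gene of each other member had. Cyp2c7 was nearest to Prss32 (0.68), Lpar3 (0.77) and Unc5a (0.81). Their group means at 30 days were 0.271 to 2.11 CPM for Prss32, 0.56 to 1.03 CPM for Lpar3 and 0.0461 to 0.15 CPM for Unc5a. Hsd3b5 had 0 CPM in 60-day females. At such low levels the log2 values depend on the prior count of 2. Cyp2c22 had close matches in Cav2 (0.12), Tmem37 (0.13) and Hsd3b7 (0.14), and Cyp2c23 in C6 (0.15) and RGD1309730 (0.15), all with narrow ranges of their own.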

How the data were processed

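Per the labels, Trizol was used for liver RNA and libraries came from a kit for stranded mRNA. The assembly Rnor_5.0 and the tools STAR, Cufflinks and limma are named in the submitters' processing notes, without roles or versions. Raw counts of reads were deposited by the authors as whole numbers for 17327 genes, with reads on no feature at 18.05% to 21.18% and ambiguous reads at 0.262% to 0.648% of each library, kept out of all totals. The deposited log2 values (11344 genes) equalled log2 CPM recomputed from the counts to 5e-09 and carry no scaling between libraries, so they served only as an alternative.

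Counts were fitted with edgeR 4.0.16 under R 4.3.3, after filterByExpr at a minimum count of 10 and TMM scaling. One robust quasi-likelihood model held the 8 group means of all 32 libraries (24 residual degrees of freedom, biological coefficient of variation 0.148). P-values were adjusted by Benjamini-Hochberg over 11002 genes within each of 18 contrasts, with a threshold of 0.05. DESeq2 1.42.0, limma 3.58.1 (voom, and the deposited log2 values), other scalings, no filter, only the groups contrasted, the title number and leaving out each library were alternatives. All 48 replicate pairs differed beyond sampling noise, with chi-square over its degrees of freedom from 10.6 to 55.9. Replicate numbers follow the order of the series and pair no animals.

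All 6 symbols matched the RefSeq gene and promoter tables (GRCr8); no coordinate of Rnor_5.0 was used. Motifs were chosen after the sequences were seen, and the members, the 8 gene lists and the marker lists were chosen with earlier results of these data known. Named genes are the members, Cyp2c genes averaging at least 1 CPM, the 3 nearest genes per member, at most 4 called genes per list and contrast, and a fixed set around growth hormone signalling and P450 control, of which those that bear on a result are given. A gene that this rule names is not reported here. The genes counted in 30-day males were those called in the sex contrast of both genotypes.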

Additional observations from a re-analysis of the deposited data

Results flagged for a closer look

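In 3 of the 48 groups of 4 values, 6 members by 8 groups, 1 library lay far from the other 3 by Dixon's criterion for the gap over the range, which chance alone gives in about 1 group in 20. Cyp2c13 had 0.935 CPM in 30-day KO females replicate 1, against 5.42 to 5.98 CPM in the other 3. Cyp2c13 had 489 CPM in 30-day WT males replicate 3, against 1400 to 1490 CPM in the others. Cyp2c23 had 1890 CPM in 60-day KO males replicate 3, with the other 3 at 1740 CPM.

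The sex difference of several members differed between 60 and 30 days by the test of the difference itself. In KO livers this held for Cyp2c11 (9.58), Cyp2c12 (-4.38), Cyp2c13 (4.21), Cyp2c22 (1.19) and Cyp2c23 (0.92), and in WT livers for Cyp2c11 (6.42), Cyp2c12 (-5.17) and Cyp2c22 (1.00), in log2 units, males minus females at 60 days minus the same at 30 days.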

How the results depend on the processing

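No called value changed direction under any alternative. Leaving out each library in turn left 1115 refitted member values as they were, called or not called, while 36 lost the call and 1 gained it. Values not called could change sign. For age by genotype in females Cyp2c23 had -0.03, and 0.05 without 60-day KO females replicate 1. For the number of members called, DESeq2 gave 1 in place of 0 for KO against WT in 60-day females. For 60 against 30 days in KO females limma-voom gave 3 in place of 5, and leaving out single libraries gave 3 to 5. For males against females in 30-day WT livers, fitting only these groups gave 2 and adding the title number gave 2 in place of 4, and leaving out single libraries gave 2 to 4; with the title number, 30-day KO livers gave 3 in place of 5. Age by genotype in females ran from 0 to 1 when single libraries were left out. The cause of these shifts was not tested, and the smaller fits also hold fewer samples. Fitted without the title number, the 30-day libraries kept both calls of Cyp2c12 between the sexes, which were lost with it. Over all genes, KO against WT in 60-day females had 49 to 928 calls under the alternatives, against 745. With the deposited log2 values, without scaling between libraries, the median of all genes lay between -0.214 and 0.074 over the contrasts. Cyp2c23 with age in males was called under all 7 alternatives, at 1.27 to 1.48 in KO and 0.76 to 0.93 in WT. The deposited values ended 3 calls. With age in KO males Cyp2c13 had 0.95 and Cyp2c22 0.37 (limma adjusted p = 0.224 and 0.149). Between the sexes in 30-day WT livers Cyp2c7 had -1.8 (limma adjusted p = 0.0791). Fits to the 30-day libraries without the title number and to the 60-day libraries only were chosen after seeing the data; the first ended both 30-day calls of Cyp2c7 between the sexes (adjusted p = 0.0714 in KO and 0.13 in WT). No paired analysis was possible because no label links animals of 1 group to those of another. Depth limits Cyp2c11 and Cyp2c13 in 60-day females, where totals of 7 to 101 reads a group stand behind each value.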
